A study of Mus musculus with 6 samples.

Results

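Of the 18333 differentially methylated regions (DMRs) listed between infant and young adult lung endothelial cells (EC), 996 were regions of lower methylation in the young adults that lay between genes, more than 1 kb but at most 50 kb from the nearest transcription start site (TSS). They were chosen by 2 properties of the list, the direction of the difference between the group means and the position of the midpoint on chromosomes 1 to 19, outside all curated RefSeq gene bodies of mm10. The 996 regions were 11.8% of the 8422 listed loss regions, and 70.0% of the 1422 intergenic loss regions on these chromosomes. The others were 365 regions more than 50 kb from a TSS and 61 regions within 1 kb of one. Because the direction of the group means selected them, the falls given below describe the regions and carry no test.

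The study asked how DNA methylation of the lung endothelium changes between the growing and the settled vessel bed. Lung EC of C57BL/6N mice, female by the study's methods, were sorted as PTPRC-LYVE1-LY76-PDPN-CD31+CD34+ cells, without genetic change or treatment, from infants aged 8 to 10 days and from young adults aged 8 to 12 weeks, with 3 samples per group. Whole genomes were bisulfite-sequenced from tagmented libraries (T-WGBS), in which a transposase cuts the DNA and adds the adaptors, and bisulfite converts unmethylated cytosines. The list gives 1 mean per group and region, the authors' mean over its CpGs and its samples. Values per sample and the depth behind each region were not analysed here, so that no error of a mean can be given. Every 95% interval printed below is a Wilson interval of a share or an order-statistic interval of a median, and covers the number of regions only, as if neighbouring regions were independent.

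Sequence between genes holds enhancers, stretches that bind transcription factors and raise the transcription of a gene at a distance. DNA methylation is set mostly at cytosines followed by guanine (CpGs), and active enhancers usually carry less of it than the sequence around them. ETS, GATA, FOX, SOX and KLF factors are among those known to act at enhancers of EC. A region's nearest gene by position need not be the gene it regulates.

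The sequences of the 6 regions with the largest falls show how few CpGs carried a difference. They are printed 5′ to 3′ from the forward strand of the mm10 reference, with each CpG in capitals and named by their nearest gene. The third is the central stretch of a region of 13 CpGs and 720 bp.
Rps6ka1 (chr4:133918542-133918690): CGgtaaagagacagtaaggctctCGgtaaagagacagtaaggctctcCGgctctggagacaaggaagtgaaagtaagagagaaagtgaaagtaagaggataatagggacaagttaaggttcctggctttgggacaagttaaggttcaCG
Hs1bp3 (chr12:8359390-8359628): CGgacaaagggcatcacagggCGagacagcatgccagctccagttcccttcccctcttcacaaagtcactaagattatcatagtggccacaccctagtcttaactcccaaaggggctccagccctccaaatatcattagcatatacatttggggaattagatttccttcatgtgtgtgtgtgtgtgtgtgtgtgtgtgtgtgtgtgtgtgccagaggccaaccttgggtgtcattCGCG
Lncppara (chr15:85679727-85680026): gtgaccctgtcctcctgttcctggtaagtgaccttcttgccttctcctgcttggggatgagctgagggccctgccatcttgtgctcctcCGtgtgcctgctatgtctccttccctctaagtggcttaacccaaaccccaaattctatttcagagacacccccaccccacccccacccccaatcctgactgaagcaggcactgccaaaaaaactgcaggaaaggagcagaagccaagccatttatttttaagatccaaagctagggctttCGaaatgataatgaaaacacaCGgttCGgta
Ccr7 (chr11:99128497-99128677): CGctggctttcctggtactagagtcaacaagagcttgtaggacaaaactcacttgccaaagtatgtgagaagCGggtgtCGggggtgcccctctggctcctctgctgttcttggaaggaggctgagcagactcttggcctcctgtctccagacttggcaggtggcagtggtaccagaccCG
A4galt (chr15:83285777-83285814): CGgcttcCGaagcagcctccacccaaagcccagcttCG
AU020206 (chr7:75789690-75789779): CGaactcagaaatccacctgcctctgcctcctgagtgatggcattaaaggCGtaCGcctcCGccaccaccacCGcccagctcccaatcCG

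The region upstream of Rps6ka1, which encodes a ribosomal S6 kinase, had the largest fall of the 996, from 82.8% in the infants to 3.92% in the young adults, over 4 CpGs. All of its bases were soft-masked as repeat. The region downstream of Hs1bp3 fell from 75.7% to 5.63%. At the Lncppara region the mean fell from 76.6% to 13.0%. At the region nearest to Ccr7, a chemokine receptor gene, it fell from 72.3% to 8.88%. The region upstream of A4galt, which encodes the synthase of the glycolipid Gb3, held 3 CpGs in 38 bp and fell from 84.3% to 21.2%. The region upstream of AU020206 fell from 82.0% to 21.2%, and 94.4% of its bases were repeat. The next largest falls were from 73.2% to 15.05% at another region nearest to Lncppara, from 63.6% to 5.52% near Sh3tc1, from 71.6% to 15.6% near Snx18, a sorting nexin gene, and from 77.04% to 23.3% near the lncRNA gene Oip5os1.

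Across the 996 regions, the median of the group means was 58.1% (95% interval, 56.3% to 59.9%) in the infants and 23.2% (21.9% to 24.8%) in the young adults. The median difference was -31.3 points (-31.9 to -30.6), with quartiles of -37.1 and -25.3 points and a range from -78.9 to -10.7 points. The young adult mean was below 50% in 909 regions (91.3%) and below 20% in 412 (41.4%), and 31 regions (3.11%) stayed above 60%. Most regions were partly methylated in the infants. The infant mean was above 80% in 119 regions (11.9%) and below 40% in 203 (20.4%), and 36 regions (3.61%) went from above 60% to below 20%. Regions that began below 40% had a median difference of -22.4 points and those that began between 60% and 80% one of -35.4 points, where a fall can be no larger than the infant level itself.

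**Figure D1:**
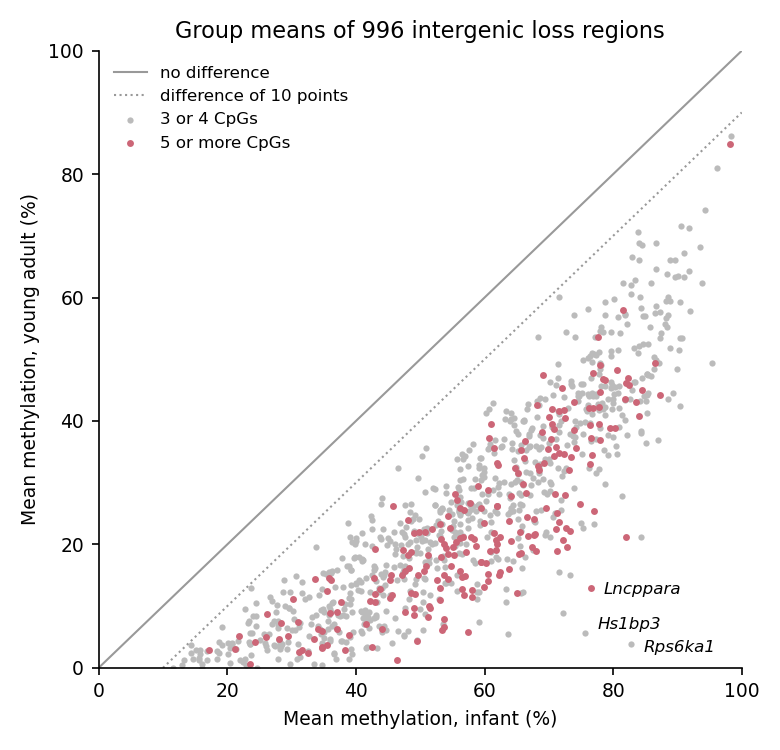
Mean methylation of the 996 intergenic loss regions in young adults (y axis, %) against infants (x axis, %), 1 point per region, with regions of 5 or more CpGs in red and the 3 largest falls named. All points lie under the line of no difference, by the choice of the regions, and 909 lie below 50% on the y axis.

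The regions were short. They held 3.99 CpGs on average, 557 (55.9%) had exactly 3, the smallest number the authors listed, and the median width was 126 bp. Regions with more CpGs had larger falls: the median difference was -29.5 points with 3 CpGs, -34.5 points with 5 or 6, and -39.3 points in the 15 regions with 10 or more. The 5 regions with the most CpGs were 3 nearest to Lncppara (19, 16 and 14 CpGs), 1 near Adrb1 (16 CpGs) and 1 upstream of Nfic, a nuclear factor I gene, which held 15 CpGs in 326 bp and fell from 42.6% to 3.32%. At 3 regions, nearest to Pcdh1, Sec14l1 and Trim56, the young adult mean was listed as 0.

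The median distance to the nearest TSS was 16.3 kb (95% interval, 15.3 to 17.6 kb), and 336 regions (33.7%; 30.9% to 36.7%) lay within 10 kb. Of the 996, 687 (69.0%; 66.0% to 71.8%) lay upstream of the gene's start and 309 downstream of it. The rule leaves out gene bodies, which extend downstream of a start. It thereby favours the upstream side, most of all close to the TSS. The upstream share was 82.3% at 1 to 5 kb and 58.8% at 40 to 50 kb. It was 70.5% (68.6% to 72.2%) in the 2458 intergenic regions that gained methylation at the same distances, and the intervals of loss and gain overlapped. In the intergenic losses more than 50 kb from a TSS it was 50.7% (45.6% to 55.8%). The fall changed little with distance, with medians between -29.1 and -32.0 points in 6 classes of distance. The nearest TSS belonged to a protein-coding gene for 728 regions, to a lncRNA gene for 204 and to a miRNA precursor for 27.

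**Figure D2:**
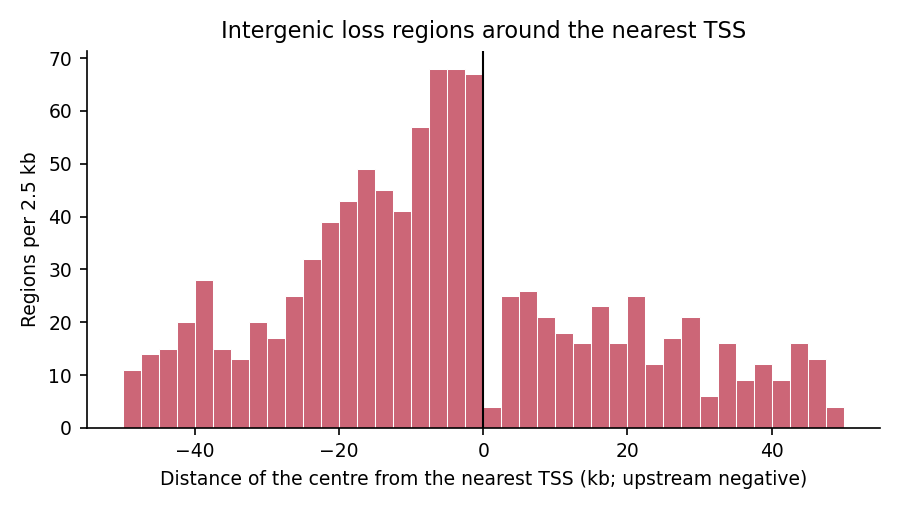
Number of the 996 regions per bin (y axis) by the distance of their centre from the nearest TSS (x axis, kb, upstream negative). The bars are highest upstream and close to the TSS, and 687 regions lie on the upstream side. Regions within 1 kb and inside gene bodies were left out by the rule, which favours the upstream side.

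The regions were nearest to 654 genes, of which 488 had 1 region and 15 had 5 or more. The 10 genes with the most held 113 of the 996 regions. The choice of annotation mattered here: 281 of the 996 (28.2%; 25.5% to 31.1%) lay inside a gene body of GENCODE vM21, and 266 (26.7%) inside one once predicted RefSeq transcripts were added. Classed by 1 GENCODE gene each, 141 of the 281 lay in a protein-coding gene and 61 in a lincRNA gene. At the 10 leading genes, 89 of the 113 regions lay inside a GENCODE gene body, against 192 of the 883 regions at all other genes (21.7%). Most of the regions at the leading genes thus lay between genes by curated RefSeq and inside a gene body by GENCODE. Once predicted RefSeq transcripts were added, 51 of the 113 lay inside a gene body, and 215 of the 883. Of the 32 regions nearest to Lncppara it was 0.

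The largest group, 32 regions with 203 CpGs, lay upstream of Lncppara on chromosome 15. Lncppara is a lncRNA gene whose transcript contains the precursors of 2 miRNAs of the let-7 family, Mirlet7c-2 (chr15:85706603-85706697) and Mirlet7b (chr15:85707319-85707403). The let-7 miRNAs are known to restrain growth and to rise as tissues mature. The 32 regions were part of a run of 36 loss regions over 58.1 kb (chr15:85645376-85703509), with no gain region and no region inside a curated gene among them. They lay 2.09 to 48.9 kb upstream of the TSS of Lncppara, and 4.92 to 51.7 kb from Mirlet7c-2. All 32 lay inside the longer GENCODE gene body of Lncppara, and 7 of them also in that of the lincRNA Gm49539. Their infant means ranged from 14.6% to 84.6% (median 61.9%) and their young adult means from 1.43% to 57.05% (median 19.1%). The young adult mean was lower in each of the 32, which the choice of the regions fixes, but the difference varied from -13.2 to -63.6 points. Levels did not follow distance: the region 37.2 kb upstream went from 83.001% to 45.02%, and the next, 36.2 kb upstream, from 15.7% to 2.23%. The region with the most CpGs of all 996, chr15:85674967-85676336, lay 28.1 kb upstream and fell from 61.9% to 19.2% over 19 CpGs. Its central 300 bases follow, with CpGs in capitals, and show 6 of them.
Lncppara (chr15:85675502-85675801): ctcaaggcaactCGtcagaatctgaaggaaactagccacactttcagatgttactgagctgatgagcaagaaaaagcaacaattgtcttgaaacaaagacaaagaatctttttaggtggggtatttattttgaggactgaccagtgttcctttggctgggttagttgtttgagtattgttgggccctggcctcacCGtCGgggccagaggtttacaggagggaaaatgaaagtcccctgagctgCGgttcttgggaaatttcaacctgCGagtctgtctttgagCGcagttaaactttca

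A further let-7 gene, Mirlet7i on chromosome 10, was the nearest gene of 3 regions on both of its sides. They fell from 59.7% to 31.3% at 1.86 kb, from 70.2% to 33.2% at 5.91 kb and from 72.1% to 45.4% at 7.96 kb. The mature miRNAs of the 3 genes share 1 seed, the bases 2 to 8 that pair with targets, which are in capitals in the RefSeq sequences.
mmu-let-7b-5p: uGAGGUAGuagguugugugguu
mmu-let-7c-5p: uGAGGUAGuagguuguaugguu
mmu-let-7i-5p: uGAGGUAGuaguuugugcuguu
Altogether 21 miRNA precursors were the nearest gene of 27 regions (2.71%; 1.87% to 3.92%), and 4 others had 2 regions each: Mir30a, Mir193a, Mir23a and Mir6387. The share of miRNA precursors among all curated genes, or near the gains, is not given here. The count therefore cannot show whether miRNA genes were in excess. The 2 regions upstream of Mir30a fell from a median of 43.1% to 12.0%, those near Mir193a from 36.5% to 9.26%, and those upstream of Mir23a from 48.5% to 21.4%. The miRNA genes lie outside the rule for named genes and were chosen after their values were seen.

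The next group of regions lay on chromosome 11 between Sptbn1, which encodes a spectrin of the cell cortex, and the lncRNA gene Gm8098. A run of 22 loss regions spanned 43.5 kb (chr11:30219721-30263242), 21 of them among the 996. Each gene was the nearest of 11 regions, 1 of those of Gm8098 lying beyond the run. The 11 regions upstream of Sptbn1 had a median of 69.5% in the infants and 30.1% in the young adults. The 11 regions nearest to Gm8098 had medians of 58.4% and 20.7%. In GENCODE all 21 regions of the run lay inside a longer transcript of Sptbn1. The one with the most CpGs, nearest to Gm8098, held 14 and fell from 58.4% to 20.9%, and its central 300 bases have 4 CpGs, in capitals.
Gm8098 (chr11:30249968-30250267): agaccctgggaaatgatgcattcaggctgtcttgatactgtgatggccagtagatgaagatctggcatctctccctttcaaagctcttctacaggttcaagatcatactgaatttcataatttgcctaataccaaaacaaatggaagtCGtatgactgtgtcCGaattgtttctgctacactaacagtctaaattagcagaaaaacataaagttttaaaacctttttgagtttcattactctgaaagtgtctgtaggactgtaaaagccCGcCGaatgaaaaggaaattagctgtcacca

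Adrb1, the gene of the β1-adrenergic receptor, was the nearest gene of 9 regions with 51 CpGs on chromosome 19, 1 upstream and 8 beyond the gene. The median was 66.3% in the infants and 18.9% in the young adults. Both levels were lowest at the region 3.15 kb downstream of the TSS, which fell from 34.8% to 4.05%. The region at 7.74 kb fell from 65.7% to 18.7%, that at 9.09 kb from 77.2% to 53.6%, and that at 18.8 kb from 84.5% to 45.1%, so that the level rose unevenly with distance. In GENCODE, 5 of the 9 lay inside a longer transcript of Adrb1. The region with 16 CpGs is shown by its central 300 bases, in which 7 CpGs are in capitals.
Adrb1 (chr19:56729713-56730012): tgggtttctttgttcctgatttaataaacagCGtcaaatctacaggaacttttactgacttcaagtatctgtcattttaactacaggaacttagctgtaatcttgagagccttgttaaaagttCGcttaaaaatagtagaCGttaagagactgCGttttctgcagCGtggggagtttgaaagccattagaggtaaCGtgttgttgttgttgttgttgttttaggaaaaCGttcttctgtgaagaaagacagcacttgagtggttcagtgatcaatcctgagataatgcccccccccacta

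Plpp1, which encodes a phosphatase of lipid phosphates such as lysophosphatidic acid, had 8 regions 24.9 to 45.3 kb upstream (chr13:112755420-112775921), outside every GENCODE gene body. With predicted RefSeq transcripts, 2 of the 8 lay inside a gene body. The medians of the 8 regions were 58.3% and 22.5%. The gene itself held 8 further loss regions. Gm31704, a lncRNA gene, was nearest to 9 regions with medians of 78.7% and 45.7%, which lay inside a longer GENCODE body of Ston1, the gene of an endocytic adaptor. Cyth3, which encodes an exchange factor for ARF GTPases, had 7 regions 4.35 to 36.6 kb upstream with medians of 71.4% and 35.6%, next to 50 loss regions inside the gene. Adgrl2, an adhesion receptor gene, had 7 regions with medians of 76.0% and 41.6%, all inside a longer GENCODE transcript of the gene. Nhlrc1 had 6 regions with medians of 37.1% and 10.7%, inside the GENCODE lncRNA 2010001K21Rik.

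Pcdh1, a protocadherin gene of cell adhesion, was the nearest gene of 13 regions with 78 CpGs on chromosome 18, 13.7 to 43.6 kb downstream of its TSS. The medians were 55.8% in the infants and 21.1% in the young adults. Of these, 12 belonged to a run of 30 loss regions over 29.8 kb, whose other 18 lay inside the gene, and 9 of the 13 lay inside a longer GENCODE body of Pcdh1.

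**Figure D3:**
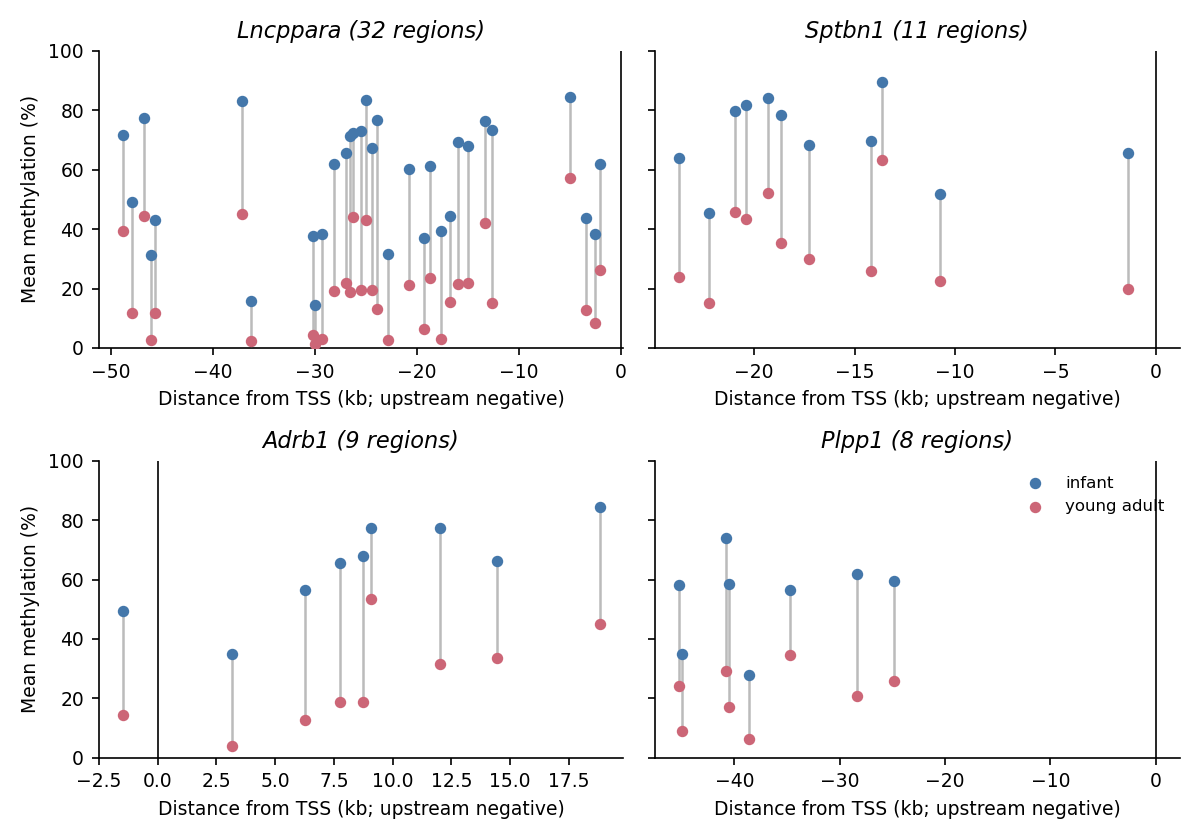
Mean methylation (y axis, %) of the regions nearest to Lncppara, Sptbn1, Adrb1 and Plpp1 by distance from the TSS (x axis, kb, upstream negative), with infant in blue and young adult in red joined per region. Each point is the authors' mean of a group. The falls at Lncppara span most of the 50 kb, and both levels at Adrb1 are lowest 3.15 kb downstream of its TSS.

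Loss regions lay near each other. Another loss region of any position lay within 10 kb of 503 of the 996 (50.5%; 47.4% to 53.6%) and within 2 kb of 288 (28.9%; 26.2% to 31.8%), and the median gap was 9.66 kb. A loss region lay within 10 kb of 33.7% (29.0% to 38.7%) of the intergenic losses more than 50 kb from a TSS, 69.6% (68.5% to 70.7%) of the 6775 losses inside genes and 8.10% (7.08% to 9.24%) of the intergenic gains at 1 to 50 kb. A gain region lay within 10 kb of 169 of the 996 (17.0%; 14.8% to 19.4%) and of 30.6% (28.8% to 32.4%) of the intergenic gains. The intervals for the 996 did not overlap those of the other 3 groups for a loss within 10 kb, and no test was made of these differences. With runs drawn where gaps were at most 10 kb, the 996 fell into 712 runs, of which 493 were a single region. The 42 runs of more than 5 loss regions held 162 of the 996. In 99 runs the loss reached into a gene, and these held 177 of the 996, while 326 lay in runs of at least 2 loss regions that were all intergenic. Runs that also held a gain region contained 12. Regions with another within 2 kb had a median difference of -32.3 points, and those with the nearest at 2 to 10 kb one of -32.6 points. For those with none within 10 kb it was -29.9 points. These classes also differed in CpGs, with means of 4.56, 3.81 and 3.73.

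The nearest gene itself held an intragenic loss region for 417 of the 996 (41.9%; 38.8% to 44.96%), and more than 5 for 162 (16.3%). For the intergenic gains the share was 17.7% (16.3% to 19.3%), and for the losses more than 50 kb away it was 39.5% (34.6% to 44.6%). Counted by gene, 245 of the 654 nearest genes (37.5%) held an intragenic loss region, compared with 8.85% of all genes on chromosomes 1 to 19, which differ in length. Nearest genes with a gain region inside were those of 145 of the 996 (14.6%; 12.5% to 16.9%) and of 23.2% (21.6% to 24.9%) of the intergenic gains.

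**Figure D4:**
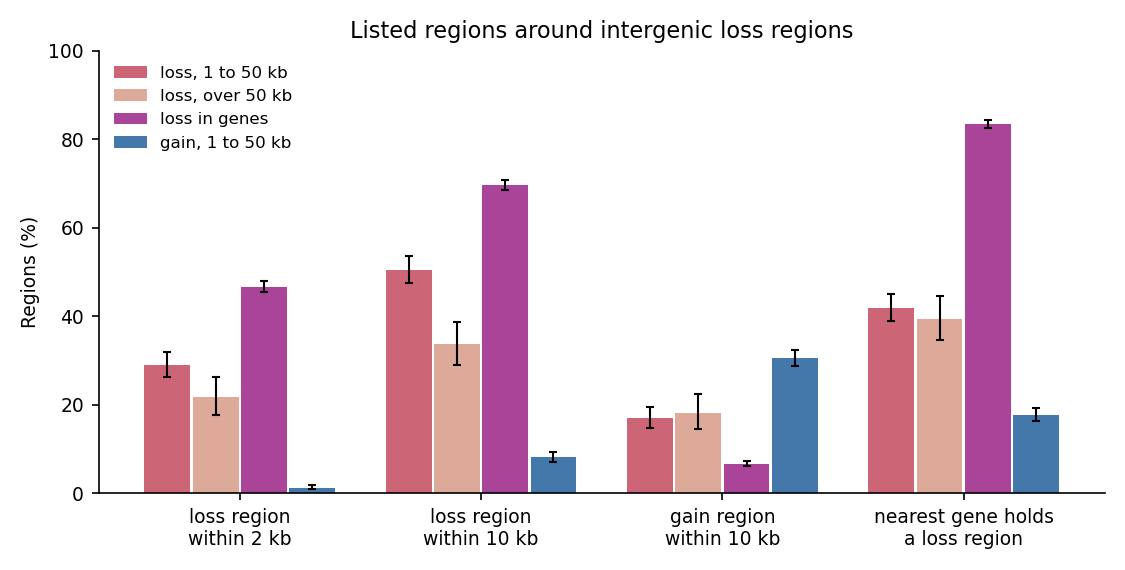
Share of regions (y axis, %) with a loss region within 2 or 10 kb, a gain region within 10 kb, or a loss region inside the nearest gene, for the 996 regions and for 3 other groups of the list. Bars are shares of 996, 365, 6775 and 2458 regions with 95% Wilson intervals. The 996 lie between the gains and the losses inside genes for a neighbouring loss within 10 kb, at 50.5%.

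Of the 24963 curated genes on these chromosomes, 2.62% were nearest to at least 1 of the 996 regions, and 7.39% to an intergenic gain region at the same distances. Every share of a gene list is to be read against these values. They were not adjusted for the length of intergenic sequence around a gene. Some genes stand in more than 1 list, among them Thbd, Cldn5, Icam2, Vcam1, Gja4 and Itga1. Their regions count in each of those lists, so the shares of the lists are not separate observations. Every list also had genes nearest to a gain region, and how many of the same genes were near both is not given here. The pan-endothelial markers had 8 of 26 genes nearest to a loss region (30.8%), with 1 region each, and 10 (38.5%) nearest to a gain region. The loss regions included those of Cldn5, a claudin of tight junctions, from 87.3% to 44.2%, of Icam2, an adhesion molecule, from 58.2% to 17.6%, of Thbd, the gene of thrombomodulin, from 54.8% to 16.4%, and of Ramp2, which encodes a co-receptor for adrenomedullin, from 41.8% to 3.42%. Of the epithelial markers 1 of 26 (3.85%), Krt7, was nearest to a loss region, and 11.5% to a gain region. Of the haematopoietic markers it was 1 of 31 (3.23%), Coro1a, with 3.23% for gain, and of the mural and fibroblast markers 0 of 27, with 7.41% for gain. Methylation alone did not allow a check of the sorted cell type.

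Of the genes listed as endothelial transcription factors, 10 of 47 (21.3%) were nearest to 16 loss regions, and 34.0% were nearest to a gain region. The 10 include Heg1, which encodes a membrane receptor and not a transcription factor. Klf2, a factor that responds to blood flow, had 4. The 3 regions 2.87 to 5.17 kb downstream of its TSS fell from 34.7% to 3.32%, from 35.0% to 5.74% and from 47.7% to 9.68%, whereas a region 22.4 kb upstream, all repeat, went from 91.9% to 64.3%. Gata2 had 3, all upstream, and the one 1.01 kb from its TSS fell from 71.6% to 23.7% over 9 CpGs. Klf9 had 2, of which the one with 8 CpGs fell from 34.7% to 3.19%, and a region 41.4 kb upstream of Epas1, the gene of HIF-2α, fell from 64.1% to 20.5%. The Klf2 region at 5.17 kb and the central 300 bases of the Gata2 region are shown because Klf2 and Gata2 had the most regions of this list and these were the largest falls at each gene, with CpGs in capitals.
Klf2 (chr8:72324141-72324321): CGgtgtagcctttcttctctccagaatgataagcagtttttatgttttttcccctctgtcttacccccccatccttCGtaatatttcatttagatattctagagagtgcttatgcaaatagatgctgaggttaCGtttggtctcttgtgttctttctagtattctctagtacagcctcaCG
Gata2 (chr6:88192736-88193035): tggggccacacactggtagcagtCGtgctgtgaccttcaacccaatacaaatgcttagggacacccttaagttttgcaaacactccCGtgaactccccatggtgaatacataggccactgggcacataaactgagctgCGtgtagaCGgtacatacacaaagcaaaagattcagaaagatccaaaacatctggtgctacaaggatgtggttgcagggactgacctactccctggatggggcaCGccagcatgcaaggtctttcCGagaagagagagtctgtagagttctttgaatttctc

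The lung capillary list had 3 of 29 genes near loss (10.3%) and 3 near gain (10.3%). Tmem100, a gene that BMP signals induce in EC, had 5 regions around it, and the largest fall was from 65.9% to 16.2% at 16.8 kb. Car4, a carbonic anhydrase of capillary EC, had 3 regions at 8.97 to 16.7 kb, which fell from 39.4% to 9.10%, from 34.3% to 11.8% and from 28.3% to 7.23%. Vasoactive and haemostatic genes had 8 of 34 near loss (23.5%) and 29.4% near gain. The regions of Adrb1, described above, were the most of any gene of this list. The arterial and venous list had 2 of 25 (8%) near loss, Vcam1 and Gja4, and 40% near gain.

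The junction and integrin genes had 13 of 42 near loss (31.0%), with 29 regions, 13 of them at Pcdh1, and 19.05% near gain. Itga3, an integrin gene, had 3, among them a small fall from 12.9% to 0.483%. The TGF-β and BMP family had 6 of 50 near loss (12.0%) and 22.0% near gain: Smad7, an inhibitor of the pathway, had 3 regions, and Smurf2, Bmpr2 and Acvrl1 had 2 each. Of the 2 regions upstream of Bmpr2, a BMP receptor gene, 1 fell from 83.2% to 46.3% and 1 from 48.5% to 18.8%. VEGF, angiopoietin and FGF signalling had 5 of 38 near loss (13.2%) and 47.4% near gain, with 2 regions each at Dusp6 and Flt1. Flt1 encodes a VEGF receptor, and its region 44.3 kb upstream fell from 49.1% to 13.7%. The matrix list had 5 of 53 (9.43%), with Timp2 and Eln at 3 regions each, and 22.6% near gain. The Timp2 region 5.16 kb upstream fell from 46.4% to 1.30%, and those upstream of Eln, the elastin gene, fell from 48.1% to 6.05%, from 51.4% to 10.1% and from 29.4% to 6.52%.

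The interferon, antigen presentation and cytokine list had 14 of 70 genes near loss (20%) and 14.3% near gain. Nfkbia, which encodes an inhibitor of NF-kB, had 4 regions, with differences of -30.3 to -46.3 points. Vcam1 had 2, and the region 42.1 kb upstream fell from 58.1% to 12.6%. The immediate-early and stress factors had 6 of 40 (15%), with 5 regions at Jun, and 20% near gain. The Wnt pathway had 7 of 60 (11.7%) and 23.3% near gain, the YAP, TAZ and TEAD pathway 2 of 26 (7.69%) and 19.2%, semaphorins, plexins and neuropilins 2 of 29 (6.90%) and 31.0%, and the Notch pathway 1 of 26 (3.85%) and 19.2%. Cyclins, CDK inhibitors and growth arrest genes had 3 of 35 (8.57%) and 11.4% near gain, and DNA methylation writers and erasers 1 of 17 (5.88%), Tet3, with 5.88% near gain.

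Motifs were read on both strands in 200 bp around each centre, and in windows of the same length 2 kb to either side. More motifs were counted than are described here. Among the others, SMAD was in 41.0% of the 996 windows against 38.6% of the flanking windows, and RUNX in 13.8% against 15.1%. IRF was in 3.61% against 3.01% of the flanking windows and 1.63% of the intergenic gain windows. The FOX motif, TGTTTAC, was in 61 of the 996 windows (6.12%; 4.80% to 7.79%), in 2.61% (1.996% to 3.41%) of the 1992 flanking windows and in 2.97% (2.37% to 3.72%) of the intergenic gain windows. The GATA motif, AGATAA, was in 153 (15.4%; 13.3% to 17.7%), in 8.99% (7.81% to 10.3%) of the flanking windows and in 10.5% (9.35% to 11.8%) of the gain windows. The losses inside genes also held both motifs more often than their own flanks, at 5.85% against 2.72% for FOX and 13.5% against 10.03% for GATA. In the 365 losses more than 50 kb from a TSS, GATA was in 17.3% against 9.32% of their flanks. FOX was there in 5.48% (3.57% to 8.31%) against 3.97% (2.78% to 5.65%), and the intervals overlapped. In windows of 45% to 55% GC, the FOX motif was in 6.01% of the 996 group, 2.76% of the gains and 2.48% of the flanks, and the GATA motif in 14.4%, 9.38% and 7.53%. At 55% GC or more the FOX motif was in 2 of 152 windows (1.32%), against 2.01% of the gains and 1.65% of the flanks. The ETS motif, CAGGAA, was in 257 (25.8%; 23.2% to 28.6%), above the flanks at 20.3% (18.6% to 22.2%) but level with the gains at 25.6% (23.9% to 27.4%). At 45% to 55% GC, which held 599 of the windows, it was in 25.7% (22.4% to 29.4%) against 24.2% (21.6% to 27.1%) of the flanks and 29.9% (27.5% to 32.3%) of the gains, so that the interval overlapped that of the flanks there. Below 45% GC it was in 22.9% (18.04% to 28.5%), against 15.3% (13.04% to 17.97%) of the flanks, without overlap. The gains were at 18.2% (15.4% to 21.2%) there. At 55% GC or more it was in 30.9% (24.1% to 38.7%), against 22.3% (17.5% to 28.0%) of the flanks. The gains were at 23.8% (19.9% to 28.2%), and the intervals overlapped.

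The KLF/SP, SOX and AP-1 motifs were closer to their flanks. KLF/SP, CCNCNCCC, was in 20.9% (18.5% to 23.5%) against 17.9% (16.3% to 19.6%) of the flanks. SOX, ACAATG, was in 9.04% (7.41% to 10.98%) against 9.74% (8.51% to 11.1%), and AP-1, TGANTCA, in 8.13% (6.59% to 9.995%) against 6.58% (5.57% to 7.75%). The hypoxia motif, ACGTG, was in 16.8% (14.6% to 19.2%) against 8.84% (7.67% to 10.2%), but it holds a CpG, of which listed regions have at least 3, and the gains had it in 15.5%. The same holds for the ETS motif with a CpG, CCGGAA, in 4.92% of the windows against 2.46% of the flanks and 4.11% of the gains. The fall was close with and without a motif: the median difference was -30.6 points with a FOX motif and -31.3 without, and -31.5 points with a GATA motif and -31.2 without. The region upstream of Clec14a, an endothelial adhesion gene, held an ETS and a GATA motif, in capitals, and fell from 53.8% to 16.4%.
Clec14a (chr12:58285038-58285146): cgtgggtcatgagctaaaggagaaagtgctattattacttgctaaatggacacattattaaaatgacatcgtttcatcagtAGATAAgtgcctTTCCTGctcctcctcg

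**Figure D5:**
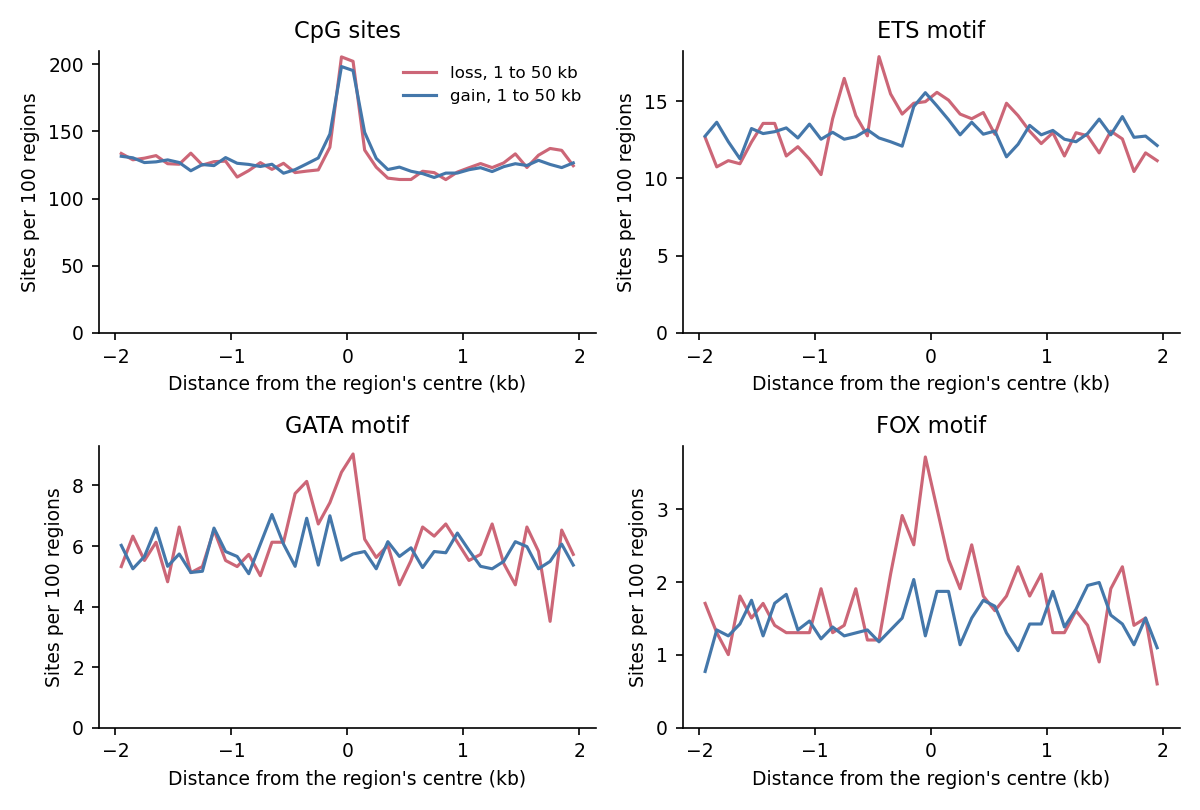
Sites per 100 regions (y axis) of CpGs and of the ETS, GATA and FOX motifs in bins of 100 bp by distance from the region's centre (x axis, kb), for the 996 losses in red and 2458 intergenic gains in blue. Both groups peak in CpGs at the centre, at 206 and 198 per 100 regions, where the losses also hold more FOX motifs, at 3.71 against 1.26 per 100 regions in the bin before the centre and 3.01 against 1.87 in the bin after it. Windows of regions in the same run overlap.

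A stretch of at least 200 bp with CpG island composition (GC of at least 50%, observed-to-expected CpG above 0.6) overlapped 102 regions (10.2%; 8.51% to 12.3%), and 4 (0.402%) by the stricter definition of 500 bp, 55% and 0.65. The intergenic gains were at 13.0% (11.7% to 14.4%). At least 50% of the bases were repeat in 104 regions (10.4%), and 541 (54.3%) had no repeat base. Of the 996, 2 regions, named after their values were seen, overlapped a RefSeq functional element: a VISTA enhancer near Gm35607, from 59.9% to 23.5%, and a regulatory region of Mcl1, a gene of cell survival, from 84.1% to 40.8%. Such an element was overlapped by 22 of the 2458 intergenic gains, 7 of the 6775 losses inside genes and 0 of the 365 losses more than 50 kb from a TSS.

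The limits of the rule were as follows. Just inside the lower limit of 1 kb were the Gata2 region above, at 1006 bp, and a region 1028 bp from 1600015H23Rik that fell from 79.96% to 42.8%, and just outside were regions at 999 bp from Rad9a (31.8% to 8.36%) and 962 bp from Fmo1 (39.1% to 8.62%). At the upper limit, regions at 49.6 kb from Jun (84.1% to 60.05%) and 49.8 kb from 4930452A19Rik (98.2% to 84.8%, 12 CpGs, all repeat) were inside, and regions at 50018 bp from Kalrn (79.8% to 43.7%) and 50.2 kb from Klf9 (71.2% to 48.4%) were outside. The smallest differences were -10.7 points, near E2f8 (23.7% to 13.0%) and Lrp6 (14.4% to 3.64%), and the smallest gain of an intergenic region at these distances was 10.01 points, near Tlr2.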

How the data were processed

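Lung EC of 3 infant and 3 young adult samples were compared. The authors aligned bisulfite reads to mm10 with BWA (version 0.6.1 in the submitters' processing notes, which also name R 3.2.2 and bcl2fastq 1.8.4), called DMRs with bsseq, and deposited 1 list of regions of at least 3 CpGs, after a filter on CpG coverage of at least 8, each past the authors' test, and a difference of group means of at least 10 points, whose group levels are given as a mean fraction of methylated reads. The fractions were printed here as percentages. Each group mean was used as the authors' mean, with no SD or n, and 0 columns belonged to other samples. The test behind the list was the authors' and its statistics were not used.

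Midpoints were placed against 45657 curated RefSeq transcripts of GRCm38.p6, the same assembly as mm10. Positions are 1-based. Runs joined loss regions at most 10 kb apart. Motifs were counted in 200 bp around each centre. Nearest is by TSS. Scripts used Python 3.11.15, pandas 2.3.3, numpy 2.4.6, scipy 1.17.1 and matplotlib 3.10.9, and were tested on simulated data. As the list holds 1 mean per group, no test between groups was possible. Named genes were those with the most regions, the largest falls, the most CpGs or a place in a gene list, and others are given as chosen after their values were seen. Regions, lists and motifs were chosen with earlier results of these data known. The values of 1 gene of a list are not reported here.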

Additional observations from a re-analysis of the deposited data

How the results depend on the processing

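No paired analysis was possible because the deposited list holds only group means, and for the same reason no sample could be left out in turn. Of 119 recomputed values, 81 stayed within their interval or 1.5 times the count and 38 moved. A reversal was looked for only in the median difference. The choice of the regions fixes its sign, so none could occur. With differences of at least 20 points, the median difference was -32.2. With the whole list, neighbours and regions inside genes included, cut to at least 5 CpGs, 225 regions remained, with a median difference of -35.5 points, a young adult median of 20.7%, 63.6% upstream, 28.9% within 10 kb of a TSS, 35.1% with another loss region within 10 kb, 26.2% with loss inside the nearest gene, 16.9% on an island, and ETS, FOX and AP-1 motifs in 21.3%, 4.44% and 3.11%. Against the full list, regions of 5 or 6, 7 to 9 and 10 or more CpGs had another loss region within 10 kb in 60.8%, 59.6% and 93.3%, and loss inside the nearest gene in 41.8%, 42.3% and 40%. Protein-coding transcripts alone gave 73.1% upstream and 48.2% with loss inside the nearest gene. The share with another loss region was 43.2% after joining regions at most 500 bp apart, 30.95% with 1 region per run, 28.9% within 2 kb and 76.3% within 50 kb. Strict islands overlapped 0.402%. ETS, KLF/SP, SOX, FOX and AP-1 motifs were in 19.6%, 16.2%, 6.53%, 3.92% and 6.12% of the regions themselves, and in 45.7%, 36.5%, 18.2%, 9.84% and 13.5% of windows of 400 bp. The GATA motif was not among the recomputed values. Flanks and gains were not recounted for any motif, so the comparisons with them were not checked here. Annotations chosen after seeing the data moved positions. GENCODE gave 887 regions (691 shared), 57.6% upstream, 47.8% within 10 kb of a TSS, 42.95% with another loss region, 29.4% with loss inside the nearest gene and 8.34% on an island. With predicted RefSeq transcripts these were 843 regions (704 shared), 65.7%, 45.4%, 45.08% and 29.7%, islands not having moved. Without the Lncppara regions, also chosen after seeing the data, no value moved. The number of CpGs sets what a region can show, and coverage per region, which limits its precision, is unknown.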
